A study of Mus musculus with 8 samples.

Results

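The cytosolic ribosomal protein genes encode the protein part of the ribosomes that translate nuclear messages. They were chosen by name, as the genes whose symbol is Rpl or Rps with a number, together with the stalk genes Rplp0, Rplp1 and Rplp2 and the gene Rpsa, and by level, with a mean of at least 1 FPKM over the 8 kidneys. FPKM are reads scaled for gene length and library depth. Of 81 such names in a table of 35275 genes, 78 passed, 46 of the large subunit and 32 of the small subunit, among 12118 genes that reached that mean. The level was thus used in the choice and is given as a description. Just outside the limit, Rpl24 averaged 0.317 FPKM and the testis genes Rpl10l and Rpl39l were listed at 0 in every mouse, and the lowest gene inside was Rpl3l at 1.52 FPKM.

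The kidneys came from 4 male mice with both copies of C1qtnf1 deleted in part (KO) and from 4 wild-type male littermates (WT), all born to heterozygous parents. C1qtnf1 encodes CTRP1, a protein secreted into the blood. Both groups were on the C57BL/6J background, were 40 weeks old and had eaten a high-fat diet, with 60% of its calories from fat, since 6 weeks of age. The deletion takes out the coding part of exon 4 and some of the 3′ UTR in every cell, and it was made in 129S5/Sv cells. Whole left kidneys were used, 1 per mouse, so a shift of a message may be a shift in the number of cells of a type or in the RNA of each cell, and these cannot be told apart.

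A ribosome carries 1 copy of nearly every ribosomal protein, and the genes are transcribed strongly in almost all cells. Many of their messages begin with a C followed by a run of pyrimidines, the 5′ terminal oligopyrimidine (TOP) motif. Through it the kinase mTOR, by way of Larp1, adjusts their translation to nutrients, whereas the amounts of the messages themselves usually vary little. Free Rpl5 and Rpl11, which enter the ribosome bound to 5S RNA, can bind Mdm2 and so stabilise p53 when assembly of ribosomes falters.

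The libraries held 17884140 to 20344859 reads, and C1qtnf1 had 40, 15, 28 and 32 reads in KO replicates 1 to 4, against 274, 247, 269 and 286 reads in WT replicates 1 to 4, so each library matched its label. Proximal tubule markers summed to 5127 to 5623 FPKM in KO mice, against 5130.3 to 5996 FPKM in WT mice, as befits a kidney. One library stood apart. In KO replicate 2 the summed FPKM of all genes was 525275, against 437496 to 450339 in the other 7 libraries, genes encoded in mitochondrial DNA took 13.7% of it, against 5.49% to 8.84%, and a weighting of libraries by their scatter gave it a weight of 0.10. Where the fold change of a single gene is given, it is therefore given with and without that mouse.

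The start of the message is where the TOP motif lies. RefSeq promoters (GRCm38.p6, the assembly of mm10) were at hand for 57 of the 78 genes. In 24 of them (42.1%) a C within 3 bases of an annotated start was followed by at least 4 pyrimidines, against 15.2% of 8810 other tested genes and 13.5% of all 27025 genes with a promoter. The pyrimidine run, its first C included, was 5 to 17 bases long with a median of 8. Shown here are starts of genes described further on, from 10 bases before to 15 bases from the annotated start, 5′ to 3′ on the strand of the gene. Capitals mark the pyrimidine run.
Rpl35 (chr2:39005117-39005141, minus strand): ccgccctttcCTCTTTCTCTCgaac
Rpl13a (chr7:45128731-45128755, minus strand): cctgcgacaagaCCTCCTCCTTTCC
Rpl14 (chr9:120571507-120571531, plus strand): ggccctctctCTTCTCgctgagcgc
Rplp2 (chr7:141447641-141447665, plus strand): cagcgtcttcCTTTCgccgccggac
Rps6 (chr4:86857353-86857377, minus strand): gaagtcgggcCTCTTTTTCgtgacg
Rps15a (chr7:118116133-118116157, minus strand): tttctgccatCTTCCCTCgccggtg
Rps27 (chr3:90213634-90213658, minus strand): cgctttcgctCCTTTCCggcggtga
Rps27l (chr9:66946076-66946100, plus strand): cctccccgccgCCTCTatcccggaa

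No such run lay within 3 bases of the RefSeq start in the other 33 genes with a promoter. They include Rps4x and Rpl11, which are shown for contrast, and Rpl3l, the copy of Rpl3 known from striated muscle.
Rps4x (chrX:102189377-102189401, minus strand): gctgggcggagcaacccaggctcca
Rpl11 (chr4:136053379-136053403, minus strand): ccataaggccacggggccggaagtc
Rpl3l (chr17:24727816-24727840, plus strand): ttctagctctgtcatttgacctctg
An annotated start can lie some bases away from the true one, so these letters describe the annotation and not the kidney message. In Rpl11 the window holds CCGGAAGT, a motif of ETS factors such as Gabpa. In the 300 bases from 250 before to 50 after a start, read on both strands, CCGGAAGT occurred in 21.1% of the 57 genes, against 8.99% of the other tested genes and 4.31% of all. For AAGATGGC, a motif of Yy1, the shares were 8.77%, 5.47% and 3.19%, and for the TATA box letters TATAAA they were 10.5%, 8.71% and 15.7%. The motifs were searched one by one, so a match of one may overlap a match of another.

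As a class these were among the most abundant messages of the kidney. Their mean level had a median of 228 FPKM, against 8.66 FPKM over the other tested genes, 65 of them averaged at least 100 FPKM, and 56 were among the 500 highest genes. Together they took 4.01%, 4.96%, 4.10% and 4.21% of the summed FPKM in KO replicates 1 to 4, against 4.28%, 4.20%, 4.07% and 4.50% in WT replicates 1 to 4. The shares of KO and WT mice overlap, and the highest of the 8 was that of KO replicate 2. The median level was 196 FPKM for large subunit genes and 243 FPKM for small subunit genes.

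The top of the range was held by Rps2, a small subunit protein near the entry of the message channel. Its FPKM were 844, 1056, 877 and 865 in KO replicates 1 to 4, against 885, 857, 838 and 855 in WT replicates 1 to 4. In FPKM as deposited only KO replicate 2 lay outside the range of the WT mice on the high side. After the scaling described below, KO replicate 3 also lay just above that range. Next came the stalk gene Rplp1, described below, then Rplp0 and Rps27. The bottom was held by Rpl3l, at 1.87, 2.10, 1.38 and 1.64 FPKM in KO mice, against 1.04, 1.34, 1.63 and 1.14 FPKM in WT mice, which rests on 29 to 53 reads a library. Above it stood Rpl23a, Rps4l, Rps15a and Rpl35. Levels of genes with many copies in the genome are uncertain, as set out further on.

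**Figure D1:**
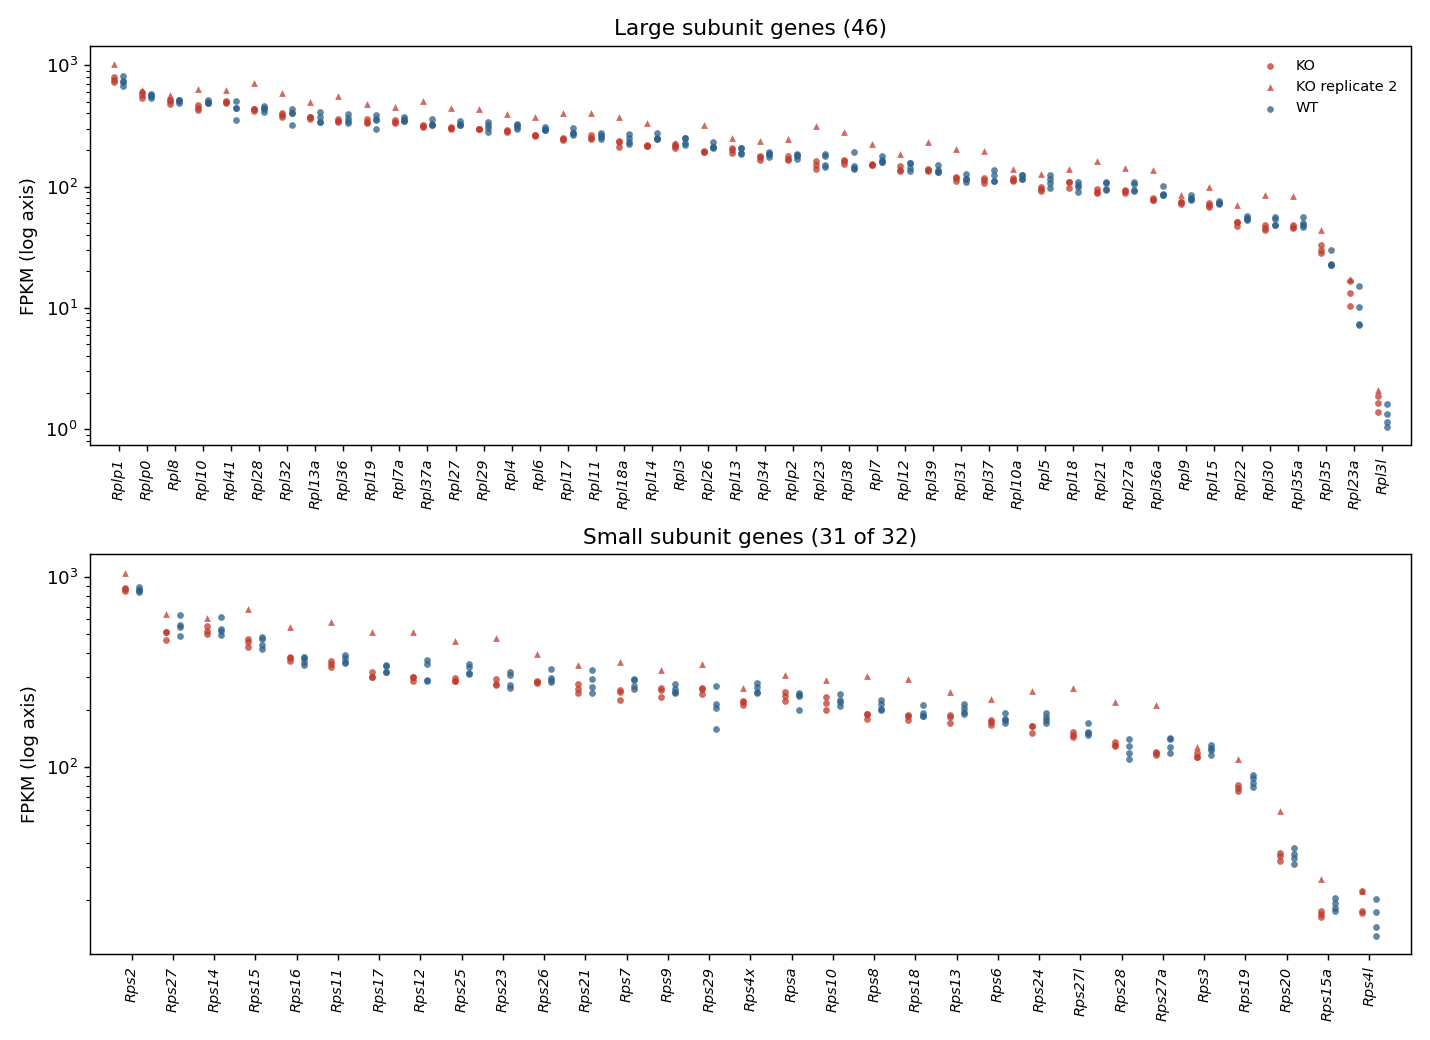
FPKM on a log axis of the 46 large subunit genes and 31 of the 32 small subunit genes, ordered by mean level, with a point for each mouse (KO left of WT, KO replicate 2 as a triangle). Most genes lie between 100 and 900 FPKM, and the triangle is the highest point of most of them.

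Across mice the genes moved together, and the main contrast was between 1 KO mouse and the other 7, not between genotypes. For each gene and mouse the departure from the mean of the 4 WT mice was taken on the log2(scaled FPKM + 1) scale, on which FPKM are first divided by a scaling factor of the library (0.936 in KO replicate 2, 0.981 to 1.05 in the others). The mean departure over the 78 genes was -0.11, 0.59, -0.04 and -0.04 in KO replicates 1 to 4, against -0.06, -0.04, -0.02 and 0.12 in WT replicates 1 to 4. All 78 genes were above the WT mean in KO replicate 2, and it was the highest of the 8 mice in 77 of them. In FPKM as deposited it was the highest in 74, the exceptions being Rps14, Rps4x, Rpl3 and Rps3.

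The other mice differed less, yet still as a block. WT replicate 4 was above the WT mean in 76 genes and the second highest mouse in 63. KO replicate 1 was the lowest of the 8 in 33 genes and WT replicate 1 in 18. A shift common to all genes of a mouse held 78.3% of the variation between mice over the 8 libraries, 31.2% without KO replicate 2 and 38.8% among the 4 WT mice alone. These are descriptions of 8 libraries, and genes of 1 library are not independent of each other.

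**Figure D2:**
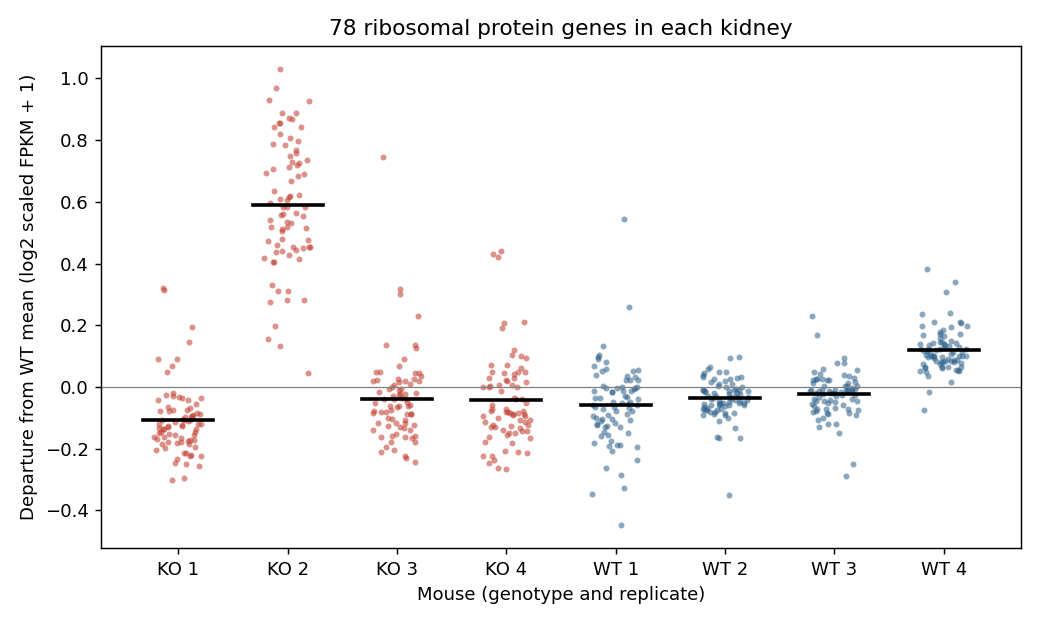
Departure of each ribosomal protein gene from its WT mean (log2 scaled FPKM + 1) in each mouse, 1 point per gene, with the mean over 78 genes as a black line. The points of KO replicate 2 centre on 0.59, those of WT replicate 4 on 0.12 and those of KO replicate 1 on -0.11.

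The spread of a single gene between mice followed from this. The coefficient of variation of FPKM had a median of 20.8% over the 4 KO mice, 3.66% over KO replicates 1, 3 and 4, and 6.39% over the 4 WT mice. In KO replicate 2, 29 of the 78 genes were at more than 1.5 times the WT mean in FPKM. The highest ratio, chosen after its values were seen, was that of Rpl23, a large subunit protein at the interface of the subunits, with 163, 313, 149 and 139 FPKM in KO mice, against 178, 146, 151 and 185 FPKM in WT mice. The ratio of KO replicate 2 to the WT mean was 1.89 for Rpl23, while the other 3 KO mice lay within or below the WT range. At the other end Rpl3 stood at 227 FPKM in that mouse, 0.956 times the WT mean.

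Between KO and WT mice no ribosomal protein gene passed the test. With limma over all 12118 genes and Benjamini-Hochberg adjustment at 0.05, 0 of 78 were called, against 0.0413% of all genes tested, and the lowest adjusted p was 0.725. At an unadjusted p under 0.05 there were 3, all higher in KO (Rpl35, Rpl23a and Rps29), which is 3.85% of the 78, against 5.95% of all genes. No gene had KO and WT values that did not overlap (0 of 78, against 5.17% of all genes). The log2 fold change of KO over WT was positive in 66 genes and negative in 12, with a median of 0.08 beside -0.01 over all genes tested, and it ran from -0.15 to 0.54.

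Without KO replicate 2 the sign of most fold changes turned. Of the 78, 63 were then negative and 15 positive, with a median of -0.08 beside -0.01 over all genes, and 51 genes that had been positive were negative. The median was 0.08 for large and 0.08 for small subunit genes over all 8 mice, and -0.07 and -0.09 without that mouse. Still 0 of 78 passed the adjusted threshold, against 0.173% of all genes, and the lowest adjusted p was 0.247 (limma). At an unadjusted p under 0.05, 17 were lower in KO (21.8%, against 5.55% of all genes) and 1, Rpl35, was higher (1.28%, against 5.91%).

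On the scaled values, the 3 remaining KO mice did not overlap the 4 WT mice in 23 of the 78 genes (29.5%), against 11.3% of all genes. All 23 were lower in KO, with log2 fold changes from -0.24 to -0.11. The genes of this family vary together from mouse to mouse, so these shares count a common shift many times over and none of them is a test. On the mean departure over the 78 genes, the difference of KO minus WT was 0.10 with all 8 mice (SD 0.33 among the KO mice and 0.082 among the WT mice, n = 4 each). Without KO replicate 2 it was -0.06, and the SD among the 3 KO mice was 0.039. The smaller difference lies within the SD of the WT mice.

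**Figure D3:**
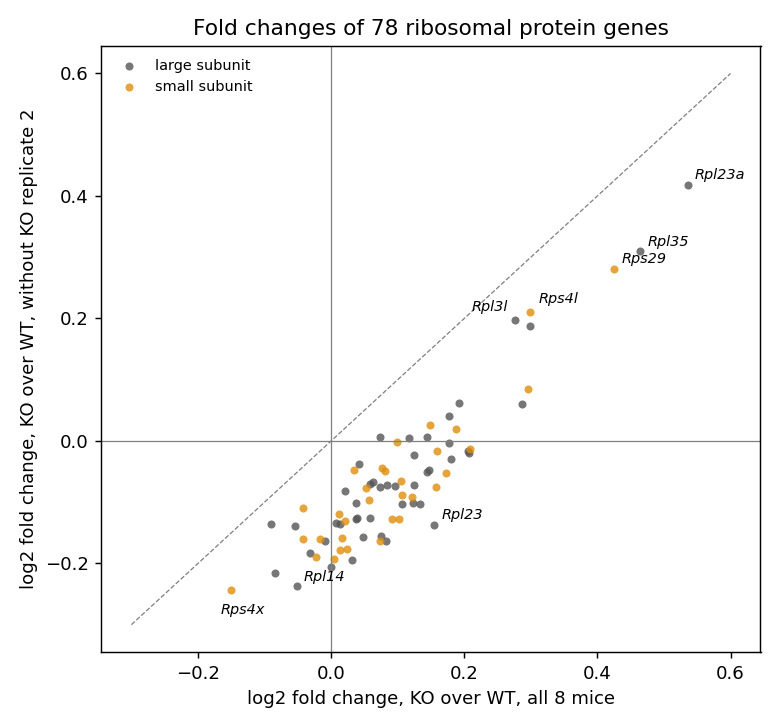
Log2 fold change (KO over WT) of 78 genes with all 8 mice (horizontal axis) and without KO replicate 2 (vertical axis), large subunit in grey and small subunit in orange, with equality dashed. Points lie below the dashed line, most of them in the quadrant that is positive with all mice and negative without that mouse.

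The stalk of the large subunit, where translation factors dock, is built on Rplp0 by pairs of Rplp1 and Rplp2. Rplp1 was at 729, 1020.2, 755 and 792 FPKM in KO mice, against 669, 724, 733 and 813 FPKM in WT mice. Rplp0 was at 531, 628, 563 and 601 FPKM in KO mice, against 536, 577, 554 and 571 FPKM in WT mice. Rplp2 was at 165, 244, 169 and 180 FPKM in KO mice, against 180, 182, 169 and 186 FPKM in WT mice. KO replicate 2 was the highest for each of the 3, and KO and WT values overlapped. Their log2 fold changes were 0.18 ± 0.15 for Rplp1, 0.07 ± 0.11 for Rplp0 and 0.08 ± 0.15 for Rplp2 (SE, limma adjusted p = 0.865, 0.900 and 0.917). Without KO replicate 2 they were 0.04 ± 0.09, 0.01 ± 0.08 and -0.07 ± 0.06 (limma adjusted p = 0.913, 0.987 and 0.719).

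The partners of 5S RNA were below or near the WT mice outside KO replicate 2. Rpl5 was at 95.7, 127, 98.4 and 92.1 FPKM in KO mice, against 123, 98.1, 106 and 115 FPKM in WT mice, a log2 fold change of -0.08 ± 0.13 (limma adjusted p = 0.907). Without KO replicate 2 it was -0.22 ± 0.08 (limma adjusted p = 0.328), and the groups still touched at WT replicate 2. Rpl11 was at 245, 402, 264 and 252 FPKM in KO mice, against 267, 257, 246 and 276 FPKM in WT mice, so that the 3 other KO mice lay among the WT mice or, in KO replicate 1, just under them. The pair differed in KO replicate 2, where Rpl11 was 1.54 times and Rpl5 1.15 times the WT mean. In Rpl5 91.1% of the stretches of 100 bases in its transcript also occur in other annotated genes, which makes its counts uncertain.

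Around the exit of the tunnel through which the new chain leaves sit Rpl35, Rpl23a and Rpl39. Rpl35, whose start opens with a pyrimidine run of 11 bases, was at 28.3, 43.7, 30.0 and 33.3 FPKM in KO mice, against 22.5, 22.9, 22.4 and 29.8 FPKM in WT mice. In these deposited values all KO mice but replicate 1 lay above all WT mice, and replicate 1 lay above all of them but WT replicate 4. On the scaled values KO replicate 3 also lay just under WT replicate 4, with departures of 0.302 and 0.306. Its log2 fold change was 0.46 ± 0.16 (95% interval 0.10 to 0.83, limma adjusted p = 0.725) and stayed at 0.31 ± 0.11 without KO replicate 2 (limma adjusted p = 0.335). In Rpl35 83.0% of 100-base stretches occur in 4 other genes, and 66.2% of its exon bases lie within exons of other genes.

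Rpl23a was at 10.4, 17.2, 16.6 and 13.2 FPKM in KO mice, against 15.01, 7.25, 7.43 and 10.1 FPKM in WT mice. The groups overlap, because WT replicate 1 lay above KO replicates 1 and 4. Its log2 fold change was 0.54 ± 0.22, and 0.42 ± 0.24 without KO replicate 2 (limma adjusted p = 0.802 and 0.579). In Rpl23a 70.8% of 100-base stretches occur in 8 other genes. Rpl39 was at 133, 233, 138 and 137 FPKM in KO mice, against 132, 131, 136 and 149 FPKM in WT mice. It is a case where the 3 other KO mice sat among the WT mice and KO replicate 2 was at 1.70 times their mean, with only 1.75% of its 100-base stretches found elsewhere.

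Rpl10, which joins last and is needed for the subunits to meet, was at 428, 633, 443 and 469 FPKM in KO mice, against 487, 493, 489 and 519 FPKM in WT mice. The 3 KO mice other than replicate 2 lay below all WT mice. Its log2 fold change was -0.01 ± 0.15 with all mice and -0.16 ± 0.07 without KO replicate 2 (limma adjusted p = 0.992 and 0.409). Rpl14, another large subunit protein, had the same order, with 216, 337, 216 and 220 FPKM in KO mice, against 253, 245, 246 and 277 FPKM in WT mice. The log2 fold change of Rpl14 was -0.05 ± 0.17 with all mice and -0.24 ± 0.07 without KO replicate 2 (limma adjusted p = 0.958 and 0.269). Rpl9 also kept this order, at 71.4, 85.8, 74.3 and 74.1 FPKM in KO mice, against 81.1, 78.6, 77.2 and 84.8 FPKM in WT mice.

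Rpl41, a tiny basic protein between the subunits, was at 484, 623, 505 and 496 FPKM in KO mice, against 355, 440.2, 444 and 504 FPKM in WT mice. All KO mice lay above WT replicates 1 to 3, and only WT replicate 4 reached them. The log2 fold change was 0.30 ± 0.15, and 0.19 ± 0.12 without KO replicate 2 (limma adjusted p = 0.848 and 0.597). Rpl13a, which also serves outside the ribosome in a complex that silences inflammatory messages in myeloid cells, was at 362, 500.3, 371 and 375 FPKM in KO mice, against 410.4, 343, 337 and 377 FPKM in WT mice. Its log2 fold change was 0.14 ± 0.14 with all mice, and 0.01 ± 0.07 without KO replicate 2, the other KO mice lying inside the WT range (limma adjusted p = 0.866 and 0.987).

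In the small subunit, Rps3 lies with Rps2 at the message entry and Rps4x is the copy on the X chromosome. Rps3 was at 114, 128, 114 and 119 FPKM in KO mice, against 126, 123, 116 and 131 FPKM in WT mice. Rps4x was at 213, 263, 220 and 225 FPKM in KO mice, against 263, 245, 248 and 277 FPKM in WT mice. Of the 78 genes Rps4x had the most negative log2 fold change, -0.15 ± 0.11 with all mice and -0.24 ± 0.07 without KO replicate 2, and the lowest adjusted p of the fit without that mouse (limma adjusted p = 0.862 and 0.247). In KO replicate 2 these 2 genes were only at 1.03 and 1.02 times the WT mean, near the low end of the 78.

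Rps6, the substrate of the S6 kinases below mTOR, was at 167, 228, 172 and 177 FPKM in KO mice, against 180.3, 178, 171 and 194 FPKM in WT mice. Rps19, the gene most often mutated in human Diamond-Blackfan anaemia, was at 75.3, 110.3, 78.1 and 80.8 FPKM in KO mice, against 91.3, 83.0, 78.9 and 87.8 FPKM in WT mice. For both, the KO mice other than replicate 2 lay in the lower part of the WT range or just under it. On the scaled values of Rps19 those 3 KO mice lay below all WT mice. Their log2 fold changes were 0.05 ± 0.13 and 0.02 ± 0.14 with all mice (limma adjusted p = 0.942 and 0.983). Without KO replicate 2 they were -0.08 ± 0.07 and -0.13 ± 0.06 (limma adjusted p = 0.709 and 0.462). Rps27a, made as a fusion with ubiquitin, was at 119, 212, 116 and 120.3 FPKM in KO mice, against 141, 128, 119 and 143 FPKM in WT mice. It was at 1.60 times the WT mean in KO replicate 2. The log2 fold change of Rps27a was 0.07 ± 0.20 with all mice and -0.16 ± 0.07 without KO replicate 2 (limma adjusted p = 0.947 and 0.409).

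Rps29, a zinc-binding protein, was at 262, 351, 259 and 242 FPKM in KO mice, against 159, 214, 206 and 267 FPKM in WT mice. All KO mice lay above WT replicates 1 to 3, and WT replicate 4 lay above KO replicates 1, 3 and 4. Its log2 fold change was 0.43 ± 0.19 (95% interval 0.00 to 0.85, limma adjusted p = 0.822), and 0.28 ± 0.16 without KO replicate 2 (limma adjusted p = 0.562). Rpsa, also known as a laminin receptor, was at 223, 306, 236 and 248 FPKM in KO mice, against 200.1, 246, 237 and 241 FPKM in WT mice. WT replicate 1 was the lowest mouse for Rpsa as for Rps29. Rps15a, at 16.9, 26.0, 16.3 and 17.5 FPKM in KO mice, against 20.5, 17.6, 18.3 and 19.3 FPKM in WT mice, was among the 5 lowest genes and had a start with a run of 8 pyrimidines.

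Other members chosen as parents of paralogs or for their high level repeated these patterns. Rps27 was at 518, 642, 468 and 517 FPKM in KO mice, against 493, 549, 558 and 635 FPKM in WT mice. Rps14, whose human copy lies in the segment lost in the 5q- syndrome, was at 504, 611, 520.2 and 556 FPKM in KO mice, against 498, 535, 522 and 617 FPKM in WT mice. In the deposited values of both genes WT replicate 4 stood level with KO replicate 2, and the groups overlap. Rpl3, which reaches to the peptidyl transferase centre, was at 209, 227, 215 and 225 FPKM in KO mice, against 251, 228, 219 and 249.9 FPKM in WT mice. In these deposited values of Rpl3 all KO mice lay below WT replicates 1, 2 and 4. On the scaled values KO replicate 2 departed by 0.04 and lay above WT replicates 1 to 3, at 0.02, -0.05 and -0.07. The log2 fold change of Rpl3 was -0.09 ± 0.09, and -0.14 ± 0.07 without KO replicate 2 (limma adjusted p = 0.866 and 0.481).

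Rpl7 was at 151, 223, 153 and 152 FPKM in KO mice, against 165, 159, 161 and 177 FPKM in WT mice. Rpl36a was at 80.9, 136, 76.8 and 77.6 FPKM in KO mice, against 85.8, 86.4, 85.1 and 101 FPKM in WT mice. Rpl22, which is best known in mice for a role in T cell development, was at 47.7, 70.4, 51.5 and 51.1 FPKM in KO mice, against 56.7, 54.2, 53.0 and 55.3 FPKM in WT mice. In each of these 3 genes KO replicate 2 lay above and the other KO mice below all WT mice. Their log2 fold changes were 0.04 ± 0.15, 0.03 ± 0.19 and 0.01 ± 0.14 with all mice (limma adjusted p = 0.968, 0.980 and 0.987), and -0.13 ± 0.07, -0.19 ± 0.08 and -0.14 ± 0.06 without KO replicate 2 (limma adjusted p = 0.497, 0.382 and 0.419).

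The 47 members not described singly by that choice, Rpl23 among them, averaged 37.3 to 511 FPKM. Their log2 fold changes lay between -0.03 and 0.30 with all mice, 43 of them positive, and between -0.21 and 0.08 without KO replicate 2, 42 of them negative. The departure of KO replicate 2 in these genes ran from 0.28 to 1.03.

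Some ribosomal proteins have a second gene with a usage of its own. The ratio of copy to parent needs no scaling factor, but the genes of a pair can differ in length. Rps27l, which p53 induces, was at 153, 262, 148 and 144 FPKM in KO mice, against 148, 153, 170.4 and 151 FPKM in WT mice. Relative to Rps27 it was 32.5 ± 5.8% in KO mice and 28.1 ± 3.06% in WT mice (SD, n = 4 each), with 40.8% in KO replicate 2 and values of 29.5%, 31.7% and 27.8% in KO replicates 1, 3 and 4. These ranges overlap the WT range of 23.8% to 30.5%. Rpl22l1, a copy of Rpl22 outside the naming rule, was at 81.8%, 126%, 72.9% and 79.0% of Rpl22 in KO mice, against 80.9%, 78.8%, 91.2% and 97.4% in WT mice. Rpl22l1 exceeded Rpl22 in KO replicate 2 alone. Rpl22l1 has 489 bases and Rpl22 2051, and length moved with departure in that mouse, as described below. What part length had in the ratios of KO replicate 2 was not tested.

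Rps4l, a gene without introns on chromosome 6, was at 8.05%, 8.56%, 8.01% and 9.93% of Rps4x in KO mice, against 7.71%, 5.93%, 5.25% and 6.29% in WT mice. Here all KO mice lay above all WT mice, with means of 8.64 ± 0.90% in KO mice and 6.29 ± 1.04% in WT mice (SD, n = 4 each). This was 1 of 6 ratios examined, was not tested, and in Rps4l itself the groups overlap, with 17.1, 22.5, 17.6 and 22.3 FPKM in KO mice, against 20.3, 14.5, 13.0 and 17.4 FPKM in WT mice. The log2 fold change of Rps4l was 0.30 ± 0.15, and 0.21 ± 0.13 without KO replicate 2 (limma adjusted p = 0.833 and 0.591). Rpl3l made up 0.797 ± 0.135% of Rpl3 in KO mice and 0.550 ± 0.147% in WT mice, and the groups overlap at WT replicate 3. Rpl7l1 made up 17.5 ± 3.15% of Rpl7 in KO mice and 19.0 ± 1.24% in WT mice, and Rpl36al 86.6 ± 8.00% of Rpl36a in KO mice and 84.1 ± 3.48% in WT mice.

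Ribosomal protein genes have left many processed copies in the genome, and a read that matches several places may be dropped or assigned at will. How the authors treated such reads is not given in the sources used here. In the M21 transcripts of mm10, 14 of the 78 genes shared more than 50% of their 100-base stretches with other annotated genes, 6 shared none, and the median share was 19.1%. Exons of 36 genes overlapped exons of other genes. Rpl24, the gene left out by its level, shared 80.1%, and Rpl35 and Rpl23a were both low and highly shared, but over the 78 genes the share and the level were only weakly related, and positively (Spearman rho 0.24 across genes, which are not independent). That rho leaves out Rpl24, which its level excluded. The highest shares of exon bases within exons of other genes were 66.2% in Rpl35, 62.3% in Rpl23a and 47.0% in Rpl24, all of low level. Rpl13a came next at 35.4%, with a mean of 384 FPKM. The level of a single gene with a high share of bases in common with other genes is uncertain for this reason.

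Gene length moved with the shift of KO replicate 2. In the deposited FPKM, the ribosomal protein genes had a median length of 932.5 bases, against 3004 bases for the other tested genes, and 45 of 78 were shorter than 1000 bases. In KO replicate 2 the other tested genes shorter than 600 bases departed from the WT mean by a median of 0.46 on the log2 scale, those of 800 to 1000 bases by 0.48, those of 1500 to 2500 bases by 0.16 and those above 4000 bases by -0.30. Ribosomal protein genes departed by 0.72 where shorter than 600 bases (14 genes), by 0.62 from 600 to 1000 bases (31 genes) and by 0.51 above that (33 genes). Length and departure had a Spearman rho of -0.29 over the 78 genes and of -0.58 over 12040 other genes, all from the same library.

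By their medians, long members departed less than short ones in that mouse, but more than other long genes. Single long members varied widely. Rps15a, at 5130 bases the longest, departed by 0.54, whereas Rps3 at 3183 bases departed by 0.16 and Rpl9 at 2686 bases by 0.20. On the high side, Rps20 at 3706 bases departed by 0.87, Rpl35a at 2858 bases by 0.84 and Rpl30 at 2412 bases by 0.82. With the running median over length taken off each library, the mean departure of the 78 genes was 0.22 in KO replicate 2, -0.08, -0.04 and -0.03 in KO replicates 1, 3 and 4, and -0.01, -0.03, -0.05 and 0.09 in WT replicates 1 to 4. KO replicate 2 remained the highest. On that scale 42 fold changes were positive and 36 negative with a median of 0.00, and without KO replicate 2 as well, 60 were negative with a median of -0.07. None was called in either fit. This step was added after the data were seen.

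**Figure D4:**
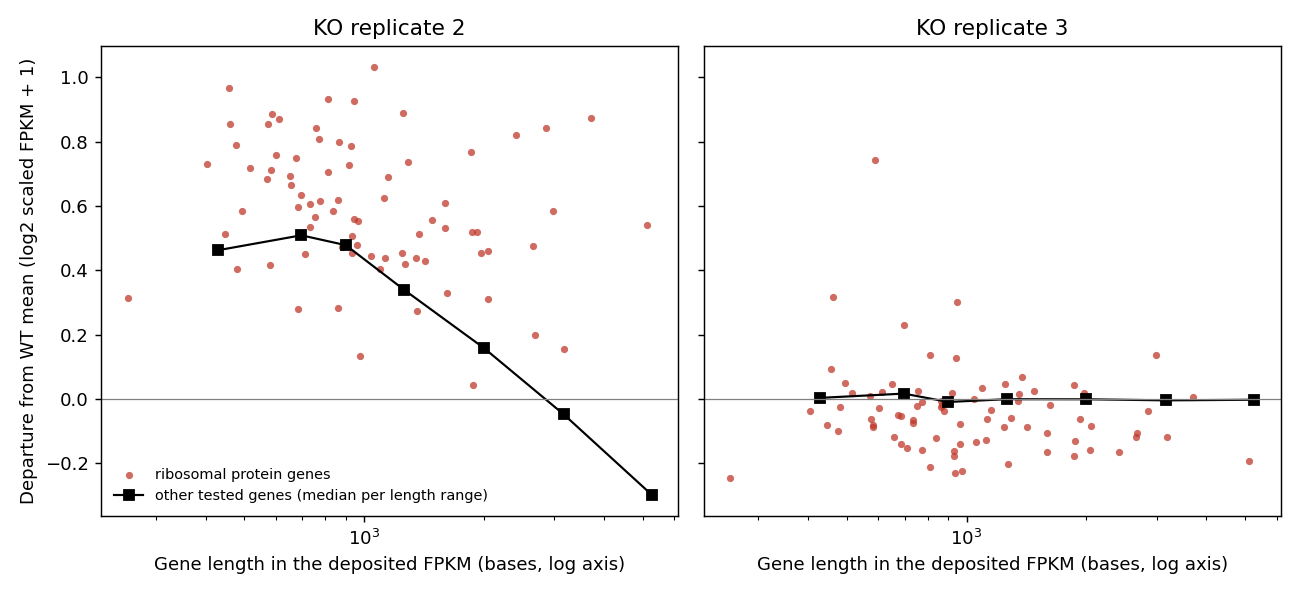
Departure from the WT mean (log2 scaled FPKM + 1) against gene length (log axis) for 78 ribosomal protein genes (red points) in KO replicates 2 and 3, with the median of the other tested genes in 7 length ranges (black squares). In KO replicate 2 the squares run from 0.46 for the shortest to -0.30 for the longest genes and most red points lie above them, while in KO replicate 3 both lie near 0.

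The shift of KO replicate 2 was of like size with and without a TOP start in the annotation. The 24 genes with such a start departed in KO replicate 2 by a median of 0.56, and the 33 without it by 0.51. Their median log2 fold changes without that mouse were -0.07 and -0.11. No test was made of these differences. The split rests on annotated starts, which can lie some bases from the true ones. It therefore cannot tell whether messages with and without the motif differed.

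Other genes of the ribosome and its control were read in the same way, from lists drawn up with earlier results known, and none of their members passed the test with all mice or without KO replicate 2. The 9 measured genes of ribosomal proteins outside the naming rule had a median departure of 0.42 in KO replicate 2 and median log2 fold changes of 0.03 with all mice and -0.11 without it. Among them, Fau, a fusion of a ubiquitin-like protein with a small subunit protein, was at 391, 506, 420 and 419 FPKM in KO mice, against 402, 399, 383 and 444 FPKM in WT mice. Fau thus resembled the genes above, KO replicate 2 alone lying beyond the WT range. Gnb2l1, the scaffold Rack1 of the small subunit, was at 70.5, 83.0, 76.6 and 80.9 FPKM in KO mice, against 74.0, 84.2, 81.3 and 86.1 FPKM in WT mice. In these deposited values it had no such excess, but on the scaled values it departed by 0.13 in KO replicate 2.

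Translation factors and other messages known for TOP starts (16 genes) departed in KO replicate 2 by a median of 0.32, with median log2 fold changes of 0.02 with all mice and -0.10 without it. The elongation factor Eef1a1 was at 1967, 2175, 2107 and 2121 FPKM in KO mice, against 2355, 2291, 2309 and 2478 FPKM in WT mice. In these deposited values of Eef1a1 all KO mice, replicate 2 included, lay below all WT mice. On the scaled values the groups overlap, at a log2 fold change of -0.15 ± 0.11, and of -0.20 ± 0.08 without KO replicate 2 (limma adjusted p = 0.859 and 0.367). Tpt1, the TOP message of a growth-related protein, was at 745, 1328, 742 and 683 FPKM in KO mice, against 849, 756, 754 and 825 FPKM in WT mice. Its value in KO replicate 2 was far above the rest, unlike that of Eef1a1.

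The mitochondrial ribosome, whose 78 nuclear genes are a separate set, was also high in KO replicate 2, with a median departure of 0.46, and 65 of its fold changes were positive with all mice, against 26 without that mouse (medians of 0.10 and -0.05). Mrps34, a mitochondrial small subunit protein, had the lowest p of these, at 17.5, 21.1, 17.4 and 19.0 FPKM in KO mice, against 17.1, 14.2, 11.6 and 14.5 FPKM in WT mice. All KO mice lay above all WT mice in Mrps34, at a log2 fold change of 0.39, and of 0.31 without KO replicate 2 (limma adjusted p = 0.619 and 0.279). Genes of ribosome assembly in the nucleolus (26) had a median departure of 0.28 in KO replicate 2, those of RNA polymerase I and its factors (14), which make ribosomal RNA, 0.08, and regulators such as Mtor, Tsc1, Larp1 and Myc (15) -0.05. The regulators are long, with a median of 4987 bases, and the lists thus differ in length as well as in role.

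**Figure D5:**
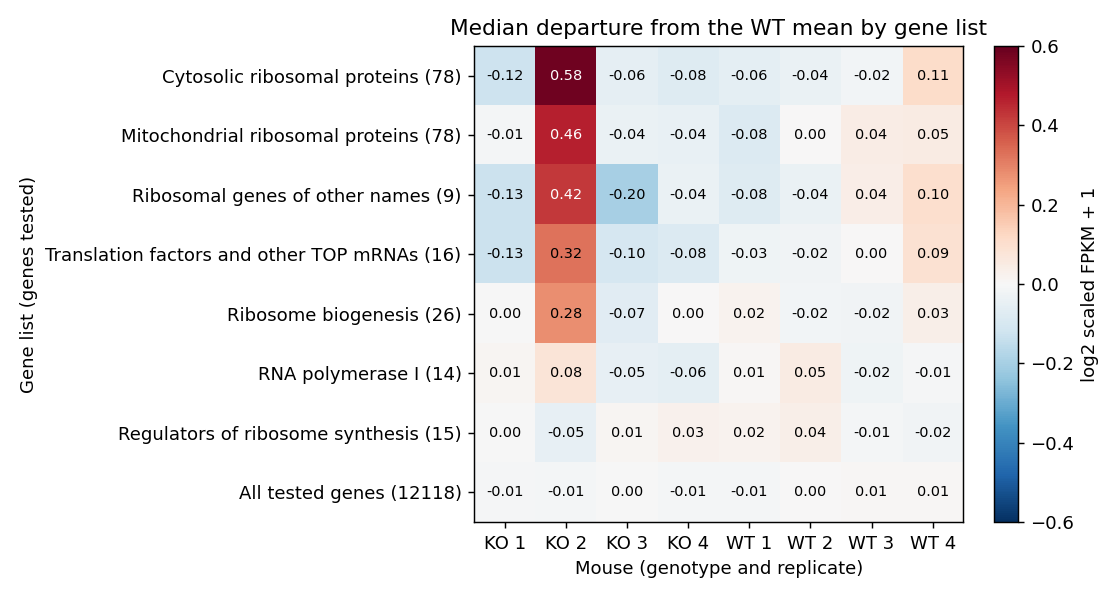
Median departure from the WT mean (log2 scaled FPKM + 1) of 7 gene lists and of all tested genes, in each mouse, in numbers and as colour, with the number of genes in brackets. The column of KO replicate 2 runs from 0.58 for cytosolic ribosomal proteins to -0.05 for regulators of ribosome synthesis, while all tested genes are at -0.01.

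Other features of KO replicate 2 moved with its ribosomal protein genes. Beside its share of mitochondrially encoded genes, the 6 endothelial markers summed to 137 FPKM, against 210.4 to 251 FPKM in the other 7 mice, the 3 markers of the distal convoluted tubule to 204 FPKM, against 329 to 390.2 FPKM, the 5 podocyte markers to 84.1 FPKM, against 113 to 126 FPKM, and the 5 markers of fibroblasts and pericytes to 25.6 FPKM, against 36.2 to 47.6 FPKM. These lists hold long genes, with median lengths of 3307 to 5423 bases. In the distal convoluted tubule list Slc12a3 carried the sum, at 151 FPKM in KO replicate 2, against 293 to 349.8 FPKM in the other 7 mice. Pvalb, at 977 bases, went the other way, with 51.4 FPKM in KO replicate 2, the highest of the 8. Trpm6 was at 2.20 FPKM in KO replicate 2 and at 2.15 FPKM in KO replicate 3, the lowest. The 5 markers of principal cells, with a median of 1765 bases, summed to 569 FPKM in KO replicate 2, the highest of the 8, against 334 to 544 FPKM. Aqp2 carried most of that sum, at 306, 364, 228 and 353 FPKM in KO mice, against 183, 242, 222 and 166 FPKM in WT mice. Fxyd4 was also highest in KO replicate 2, at 21.1 FPKM, but Scnn1g, Aqp3 and Hsd11b2 were not. Of 12 marker lists, 8 had their lowest sum in KO replicate 2 and 1 its highest. Not all of the 8 hold long genes. The macrophage markers, with a median of 1216.5 bases, were among them, at 98.5 FPKM, against 104 to 192 FPKM in the other mice. The immediate early genes Fos, Jun, Junb and Egr1 departed by 2.27 to 2.44 in KO replicate 2, whereas the heat shock genes Hsph1, Dnajb1, Hspa1b and Hspa1a departed by -0.21, -0.03, 0.20 and 0.44. Junb, an early-response transcription factor, was at 17.2, 113, 30.6 and 33.8 FPKM in KO mice, against 21.2, 22.6, 21.2 and 23.0 FPKM in WT mice. Hspa1b, an inducible chaperone, was at 56.7, 10.8, 28.0 and 25.8 FPKM in KO mice, against 9.13, 12.7, 7.24 and 11.8 FPKM in WT mice. For Junb KO replicate 2 was the highest mouse, and for Hspa1b it was the lowest KO mouse. The 5 of 7 urothelial markers that reached a mean of 1 FPKM summed to 28.8, 13.5, 12.7 and 24.1 FPKM in KO mice, against 5.88, 8.12, 3.24 and 2.89 FPKM in WT mice, with KO replicate 2 within the KO range. No marker of these lists was at 0 in any mouse. What part any of these had in the shift of KO replicate 2 was not tested.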

How the data were processed

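The authors deposited 1 table with a value per gene and mouse and no unit in its header. The deposited values were treated as FPKM, because the smallest steps between low values followed gene length, as whole reads would. All 12118 tested genes gave whole reads within 0.01 reads once depth and length were fitted, and 99.8% to 99.9% of each library was recovered. The tools named are HTSeq 0.6.1, STAR 2.5, DESeq2 and CASAVA, and the build is mm10, per the submitters' processing notes. Annotation, strand setting and handling of reads with several matches were not given in the sources used here. Positions and exons came from GENCODE M21 of mm10.

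FPKM were divided by trimmed-mean factors (0.3 of log ratios and 0.05 of levels trimmed at each end) from the recovered reads. limma 3.58.1 in R 4.3.3 (statmod 1.5.0; trend and robust options) was fitted to log2(scaled FPKM + 1) for genes with a mean of at least 1 FPKM, 4 KO against 4 WT mice, with Benjamini-Hochberg adjustment at 0.05. Fold changes on that scale understate those of low genes. The fit was tested on simulated data. A few genes are not reported here by name. Each mouse is 1 library. The members, the lists and the rule for named genes (extremes of p, level and departure, paralogs, their parents and genes of known role) were chosen with earlier results of these data known. Values per mouse are FPKM as deposited, with depths of 17884140 reads or more, and no member had fewer than 29 reads in a library. Alternatives were other scalings, filters and pseudocounts, array weights, leaving out each mouse, and, added after the data were seen, limma-voom on recovered reads and a gene length step.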

Additional observations from a re-analysis of the deposited data

Results flagged for a closer look

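Several ribosomal protein genes had 1 mouse far from the other 3 of its genotype on the log2(scaled FPKM + 1) scale, judged by the gap to the nearest mouse as a fraction of the range of the 4. The fractions given are above the 95% critical value, which chance passes in about 5% of groups of 4. In KO mice replicate 2 was the far one each time, with 0.96 for Rpl14 and Rps27a, 0.95 for Rpl36a, 0.94 for Rpl7, 0.92 for Rps27l and Rpl39, 0.89 for Rps15a and Rpl13a, 0.85 for Rpl11, and 0.83 for Rps29 and Rps19. The mean departure over the 78 genes gave 0.90 in KO mice, again from replicate 2. Over all 78 genes KO replicate 2 stood apart in 43. No such count was made over all tested genes, so it does not set this family apart from other genes.

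In WT mice 6 of the 78 genes had such a mouse. WT replicate 1 was far below the others in Rpsa (0.95) and Rplp0 (0.85). WT replicate 4 was above the others in Rpl22 (0.97) and Rpl11 (0.83). In Rpl22 the gap was small, with a departure of 0.03 in WT replicate 4 and of -0.01 in the other WT mice, and it exists only after scaling, since WT replicate 1 was the highest in FPKM as deposited.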

How the results depend on the processing

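No ribosomal protein gene was called in the main fit or under any of the 18 alternatives, and the 557 alternative fits of 31 named genes all kept their side of the threshold. The direction of the family as a whole did change. The median log2 fold change of 0.08 became 0.0027 with the length step, -0.0737 with array weights and -0.0739 with the length step without KO replicate 2, and lay between -0.0795 (without KO replicate 2) and 0.154 (without KO replicate 1) when 1 mouse was left out. The mean departure of 0.10 became 0.018 with the length step and -0.0502 with the length step without KO replicate 2, and lay between -0.0631 and 0.169 with 1 mouse left out, negative only without KO replicate 2. The share of summed FPKM, 0.061 percentage points higher in KO, lay between -0.153 and 0.164 with 1 mouse left out, and was also negative, at -0.0027, without WT replicate 3. Over all genes, 5 were called, against 3 at a mean of at least 5 FPKM, 59 with array weights, 21 with the length step without KO replicate 2, and 3 (without WT replicate 1 or 3) to 21 (without KO replicate 2) with 1 mouse left out, with 20 without KO replicate 3 and 9 without KO replicate 4. No paired analysis was possible because the labels tie no KO mouse to a WT mouse. The SE of a log2 fold change had a median of 0.15 over the 78 genes with all mice and of 0.072 without KO replicate 2. Differences several times that size were not called, among them 0.46 ± 0.16 for Rpl35 with all mice. The 0.54 ± 0.22 of Rpl23a with all mice was not called either, and its own SE was above that median. Depth limits Rpl3l and Rpl23a, which had under 100 reads in some library.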
